A study of Homo sapiens with 6 samples.

Results

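The replication-dependent histone genes of K562 cells were followed by ATAC-seq through treatment with the phorbol ester PMA. The genes were chosen by symbol: every protein-coding gene named H2AC, H2BC, H3C or H4C with a number, or H1-1 to H1-6. This gave 70 of the 20033 protein-coding genes of the annotation used, namely 6 H1, 17 H2A, 19 H2B, 13 H3 and 15 H4 genes. A site was assigned to them when it lay within 2 kb of either end of a gene, and 62 of the 181135 sites of the deposited table did. This rule uses symbols and positions, not measured values.

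K562 is an established human leukaemia line with erythroid features, wild type here. PMA, which activates protein kinase C, was given at 25 nM for 0, 6 or 72 h to push the cells towards a megakaryocyte-like state, and each time has 2 libraries. The 0 h libraries are the untreated controls, and the medium of the cultures was renewed at intervals during the longer treatment. In Omni-ATAC a transposase cuts accessible DNA, so counts over a site rise with its accessibility. In a bulk culture, fewer cells with an open site and a less open site in each cell cannot be told apart. The labels do not say whether the libraries of a time came from separate cultures, so p-values measure only the spread between these samples, which may be technical.

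Replication-dependent histone genes supply the linker histone H1 and the core histones H2A, H2B, H3 and H4 that package new DNA in S phase. Their genes are short, lack introns in their coding parts and sit in clusters, and their mRNAs end in a stem-loop in place of a poly(A) tail. NPAT, a substrate of cyclin E and CDK2, gathers with them in the histone locus body and raises their transcription as cells enter S phase. Cells that leave the cell cycle lower the output of these genes, while replacement histones such as H3.3 go on being made.

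On GRCh38 the genes fell into the chr6 cluster with 55 genes (chr6:25726063-27893891, 2.168 Mb), a proximal chr1 cluster with 11 genes (chr1:149782689-149887965, 0.105 Mb), a distal chr1 pair of 2 genes (chr1:228457364-228458558), and 1 gene each on chromosomes 12 and 21. The chr6 cluster held 47 of the 62 sites and chromosome 1 held 15. Of the 70 genes, 55 had a site and 52 had their start covered by a site. By class, sites lay near 4 of 6 H1, 16 of 17 H2A, 14 of 19 H2B, 10 of 13 H3 and 11 of 15 H4 genes. The 15 genes without a site were H1-1, H1-6, H2AC14, H2BC3, H2BC6, H2BC10, H2BC12L, H2BC14, H3C3, H3C6, H3C11, H4C6, H4C7, H4C13 and H4C16, and they were not analysed here. A start was covered by 39 sites, called start sites below, while 22 were flanking sites and 1, at H3C12, could not be assigned because the gene had no entry in the promoter table. Several annotated genes have a far end many kb from the histone promoter (H2BC18, H4C15, H2BC4, H2BC5 and H2BC12), so some flanking sites are near such an end only.

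An H2A and an H2B gene often share a promoter and run apart from it. There were 11 such divergent pairs with 194 to 248 bases between starts (median 236), and in 10 of them 1 site covered both starts. The exception was H2AC14 with H2BC14, which had no site. Promoter sequences were available from RefSeq (GRCh38.p14) for 64 of the 70 members, all but H2AC12, H2BC12L, H3C11, H3C12, H4C1 and H4C3. The sequences that follow show the 150 bases before the start, 5′ to 3′ on the gene's own strand, for the members on which the results below turn. Capitals mark matches on either strand to TATAAA (the TATA box), CCAAT (the CCAAT box), ATTTGCAT (the octamer bound by POU2F1), AAACACA (the H1 box) or GGTCCG (the core of the H4 site II element bound by HINFP). A match on the opposite strand reads as its reverse complement (ATTGG for CCAAT), and neighbouring matches that overlap run together.

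The pair under the most accessible start site is H2BC11 (chr6:27132796-27132945, minus strand) with H2AC11 (chr6:27132893-27133042, plus strand), and its counterpart on chromosome 1 is H2BC21 (chr1:149886683-149886832, minus strand) with H2AC20 (chr1:149886768-149886917, plus strand).
H2BC11: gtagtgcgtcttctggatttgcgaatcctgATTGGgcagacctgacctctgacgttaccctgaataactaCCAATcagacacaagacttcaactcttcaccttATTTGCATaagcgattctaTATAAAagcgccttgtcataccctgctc
H2AC11: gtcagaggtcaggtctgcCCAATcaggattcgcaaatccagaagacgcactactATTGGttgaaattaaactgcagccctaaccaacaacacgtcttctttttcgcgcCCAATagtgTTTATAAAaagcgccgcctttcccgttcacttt
H2BC21: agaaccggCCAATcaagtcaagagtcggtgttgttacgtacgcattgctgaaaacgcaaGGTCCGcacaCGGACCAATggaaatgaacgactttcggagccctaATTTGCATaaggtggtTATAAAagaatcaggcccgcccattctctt
H2AC20: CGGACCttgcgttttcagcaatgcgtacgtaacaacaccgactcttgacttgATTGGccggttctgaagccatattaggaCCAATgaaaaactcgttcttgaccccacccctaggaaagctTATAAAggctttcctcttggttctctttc

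For H4, H4C9 is shown for its fall in accessibility (chr6:27139132-27139281, plus strand), beside H4C2 on chromosome 6 (chr6:26027284-26027433, minus strand) and H4C14 on chromosome 1 (chr1:149832507-149832656, plus strand).
H4C9: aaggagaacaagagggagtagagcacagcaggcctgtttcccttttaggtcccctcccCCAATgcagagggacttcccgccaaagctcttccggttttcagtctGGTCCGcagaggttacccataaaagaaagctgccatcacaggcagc
H4C2: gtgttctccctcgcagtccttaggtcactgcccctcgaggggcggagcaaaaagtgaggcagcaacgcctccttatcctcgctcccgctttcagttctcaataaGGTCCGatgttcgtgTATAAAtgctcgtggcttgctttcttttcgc
H4C14: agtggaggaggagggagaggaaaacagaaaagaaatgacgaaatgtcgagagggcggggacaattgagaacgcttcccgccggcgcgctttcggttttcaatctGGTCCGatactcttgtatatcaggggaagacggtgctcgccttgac

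For H3 the chr6 gene H3C2 (chr6:26032100-26032249, minus strand) and the chr1 gene H3C14 (chr1:149841209-149841358, minus strand) are shown, and for H1 the gene H1-4 (chr6:26156179-26156328, plus strand).
H3C2: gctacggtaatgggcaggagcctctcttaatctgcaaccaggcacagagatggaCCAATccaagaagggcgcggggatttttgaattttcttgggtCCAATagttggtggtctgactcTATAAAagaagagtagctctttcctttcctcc
H3C14: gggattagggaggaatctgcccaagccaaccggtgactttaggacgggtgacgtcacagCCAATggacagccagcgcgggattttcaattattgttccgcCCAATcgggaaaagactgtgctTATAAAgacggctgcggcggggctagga
H1-4: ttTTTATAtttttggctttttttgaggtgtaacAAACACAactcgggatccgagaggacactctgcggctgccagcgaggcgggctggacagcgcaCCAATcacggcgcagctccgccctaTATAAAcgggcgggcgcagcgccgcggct

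The motifs divided the promoters by histone class. All shares refer to the window from 250 bases before to 50 after the start, searched on both strands. TATAAA was in 42 of the 64 member promoters, against 9.75% of 15841 protein-coding promoters, and on the gene's own strand it lay mostly near position −31, as in H2BC11, H4C2, H3C2 and H1-4 above. CCAAT, which in H2BC21 overlaps an opposite-strand match to GGTCCG, was in 54 of 64 (36.4% of all promoters): in every promoter of the H1, H2A, H2B and H3 classes that had an entry, but in only 3 of 13 H4 promoters, H4C9 among them. The octamer was in 26 of 64 (1.72% of all promoters). It was found in 14 of 18 H2B promoters, in 13 of them on the gene's own strand at a median position of −49, as in H2BC11 and H2BC21. It was also in 11 of 16 H2A promoters, in 10 of them on the opposite strand at positions −208 to −118, and in 1 of 11 H3 promoters. Starts of a divergent pair lie so close that their windows overlap, so 1 octamer can be counted for both genes. The match at −47 in H2BC11 is the match at −208 in H2AC11, and that at −46 in H2BC21 is the match at −197 in H2AC20. The counts are of promoters, not of separate elements. AAACACA was in all 6 H1 promoters and in 9 of 64 members (4.27% of all promoters). In 5 H1 promoters it had a match on the gene's own strand, while H1-1 had only an opposite-strand match at −183. GGTCCG was in 15 of 64 members (14.5% of all promoters) and in 12 of 13 H4 promoters, each time on the gene's own strand between positions −47 and −44. These are matches of letters and show no binding.

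**Figure D1:**
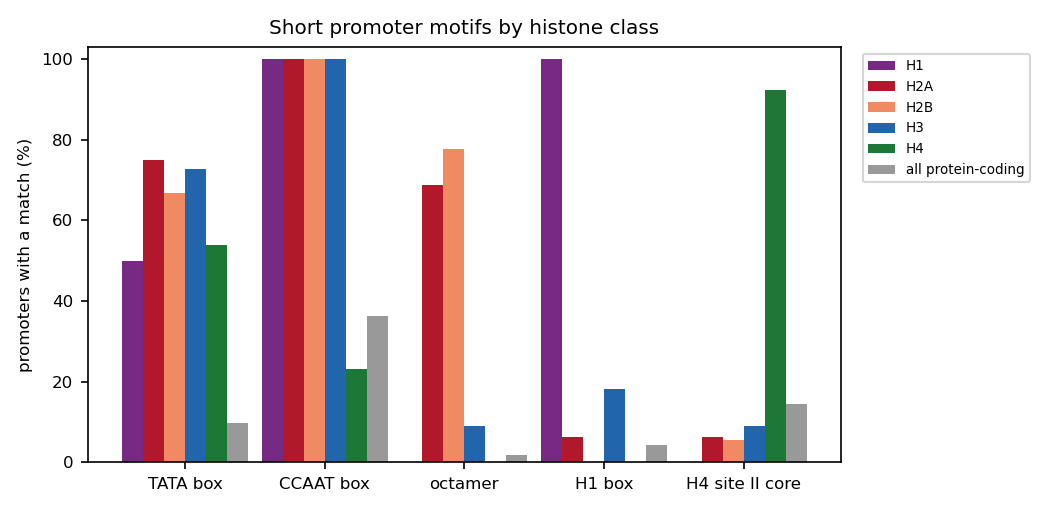
Bars give the percent of RefSeq promoters in each histone class, and of all protein-coding promoters (grey), that hold at least 1 match to the motif on either strand within 250 bases before to 50 after the start (y axis, from 0 to 100%). The H1 box stands at 100% in H1, the H4 site II core at 92.3% in H4 and the octamer at 77.8% in H2B and 68.8% in H2A, against 14.5% or less among all promoters for these 3 motifs. An element between the starts of a divergent pair can be counted for both genes.

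Some copies cannot be told apart by their promoters. The H4C14 and H4C15 promoters were identical over 300 of 300 bases, H2AC18 and H2AC19 over 299 of 299 and H3C14 and H3C15 over 296 of 296, the latter pairs after a shift of the annotated start. H4C11 and H4C12 matched at 295 of 300 bases. How reads that fit more than 1 copy were placed is not given in the sources used here, so the values of these 8 genes are uncertain between copies. H2AC7 and H3C4 have the same annotated start, so their promoter entry is the same sequence and enters the motif counts under both H2A and H3, including the octamer found in H3.

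Before treatment the histone starts were among the more accessible sites of the genome. Levels are CPM, read counts scaled to a common library size with TMM factors, divided by site length in kb where sites are compared with each other. The 39 start sites had a median of 56.6 CPM per kb at 0 h, which is the 98.7 percentile of all sites, against 10.6 CPM per kb for the 25521 sites near an end of any protein-coding gene and 3.11 for all sites. At 72 h the median of the start sites was 18.9 CPM per kb, the 96.7 percentile, against 7.18 for gene ends and 4.03 for all sites. Start sites were wide, with a median of 1199 bases against 588 for all sites. A deposited peak overlapped 38 and 39 of the 39 start sites in the 0 h libraries and all 39 in each of the libraries at 6 and 72 h.

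By class at 0 h, the 10 sites over an H2A and an H2B start had the highest median, 83.5 CPM per kb, and fell to a median of 26.4 at 72 h. The 5 H3 sites stood at 62.6 and 17.3, the 4 sites over an H2A start alone at 61.8 and 20.4, the 11 H4 sites at 52.3 and 16.0, the 3 H2B sites at 40.1 and 13.0, and the 4 H1 sites at 34.8 and 11.9. Single start sites spanned a wider range than these medians. The start site of H2AC1 and H2BC1, histone genes known from testis, was the lowest at 0 h (7.32 CPM per kb), and that of H2BC11 and H2AC11 the highest (146).

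**Figure D2:**
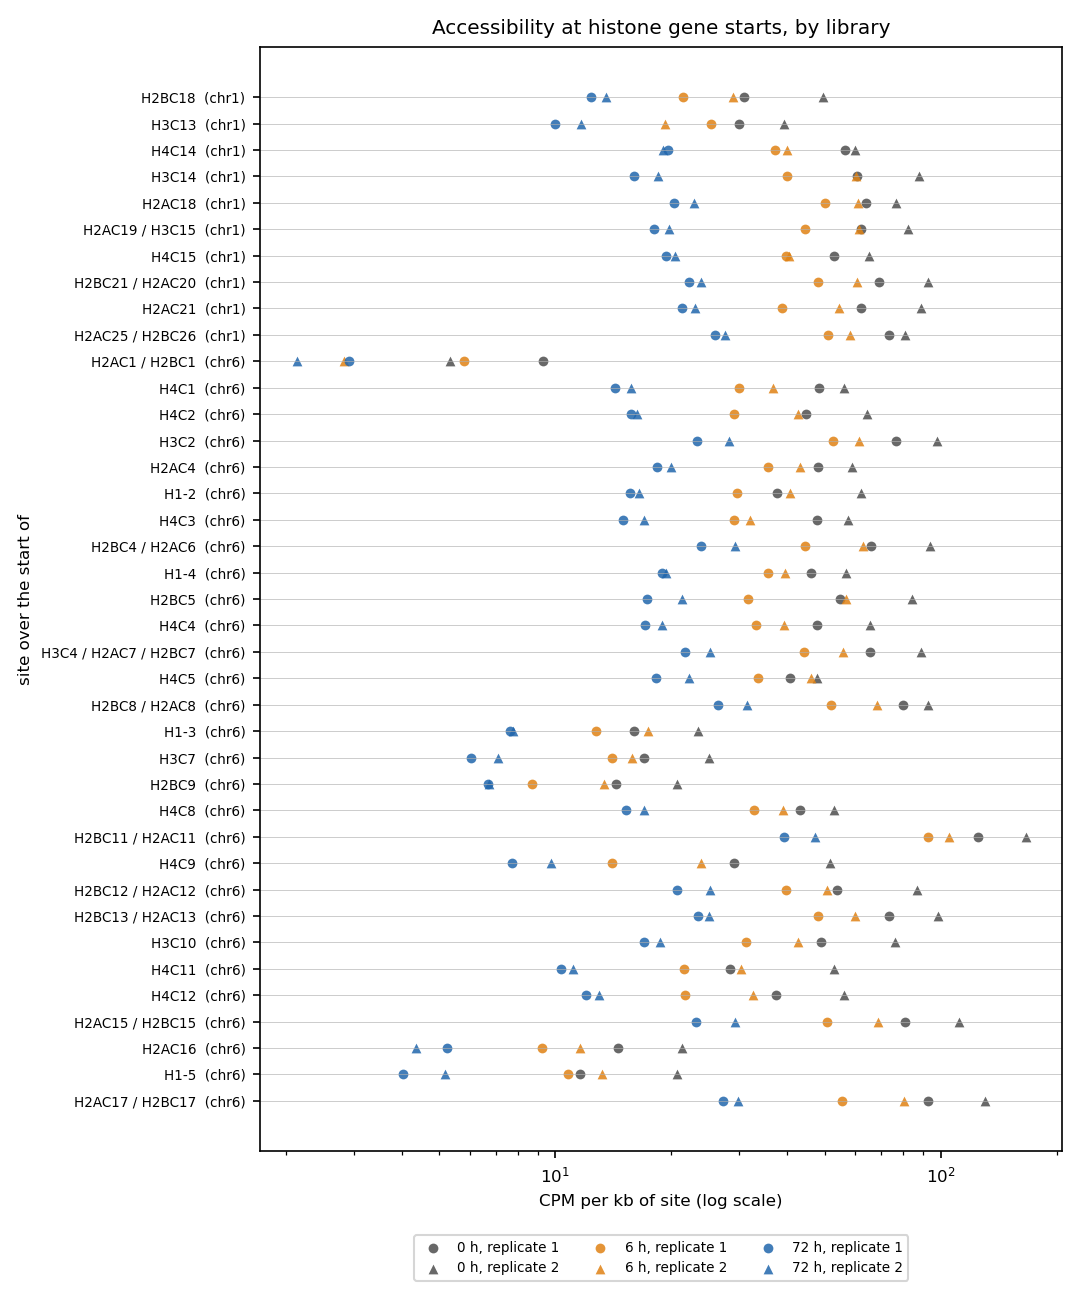
Each row is 1 of the 39 start sites, named by the genes whose starts it covers, and each point is 1 library (circles replicate 1, triangles replicate 2) at 0 h (grey), 6 h (orange) or 72 h (blue), in CPM per kb on a log axis. In 32 of the 39 rows both 0 h points lie above both 6 h points and those above both 72 h points.

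After 6 h of PMA, histone sites had become less accessible relative to all sites. Of the 62 sites, all of which passed the filter on low counts, 42 fell and 3 rose (edgeR quasi-likelihood test, Benjamini-Hochberg adjusted p under 0.05 over 177759 tested sites). Over all tested sites 40.1% were called, 16.8% as lower and 23.4% as higher. Among tested sites at gene ends 31.5% were lower. The median log2 fold change of the histone sites was −0.59, against −0.32 for the 25391 tested sites at gene ends and 0.05 for all tested sites. Start sites accounted for most of it: 34 of 39 fell and none rose, with a median of −0.61, while of the 22 flanking sites 7 fell and 3 rose, with a median of −0.38. Calls at 6 h depended on single libraries. Without the first 6 h library 14 sites were called, and without the second 0 h library 10 were, 9 of them among the 45, with medians of −0.40 and −0.30. At a stricter threshold, an adjusted p under 0.01 and a log2 fold change beyond 1 in size, 2 sites fell and 2 rose. Of all tested sites 7.11% fell at that threshold, a larger share than of the 62 histone sites. The share of all sites that rose at it is not given here.

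By 72 h nearly all histone sites had fallen. Of the 62 sites 58 were lower and 1 higher than at 0 h by the same test, against 67.4% of all tested sites called, 29.2% as lower and 38.2% as higher. Among tested sites at gene ends 60.7% were lower. The median log2 fold change was −1.63, about 0.322 of the starting level, against −1.01 at gene ends and 0.29 over all sites. All 39 start sites fell, with a median of −1.72 and a range from −2.21 to −1.13. Between 6 and 72 h 56 sites fell and none rose, against 42.9% of all tested sites called and 20.9% called lower, with a median of −1.07. At gene ends 52.6% were lower in this contrast. At the stricter threshold 53 sites fell at 72 h against 0 h (20.8% of all tested sites) and 43 at 72 h against 6 h (8.56%). Any change over the time course was called at 60 of 62 sites (72.0% of all tested sites). In 39 of 62 sites, 32 of them start sites, the libraries of the 3 times did not overlap and stood in the order 0, 6 and 72 h from high to low, which 15.6% of all tested sites did. Of the 25391 tested sites at gene ends, 10740 stood in this order.

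**Figure D3:**
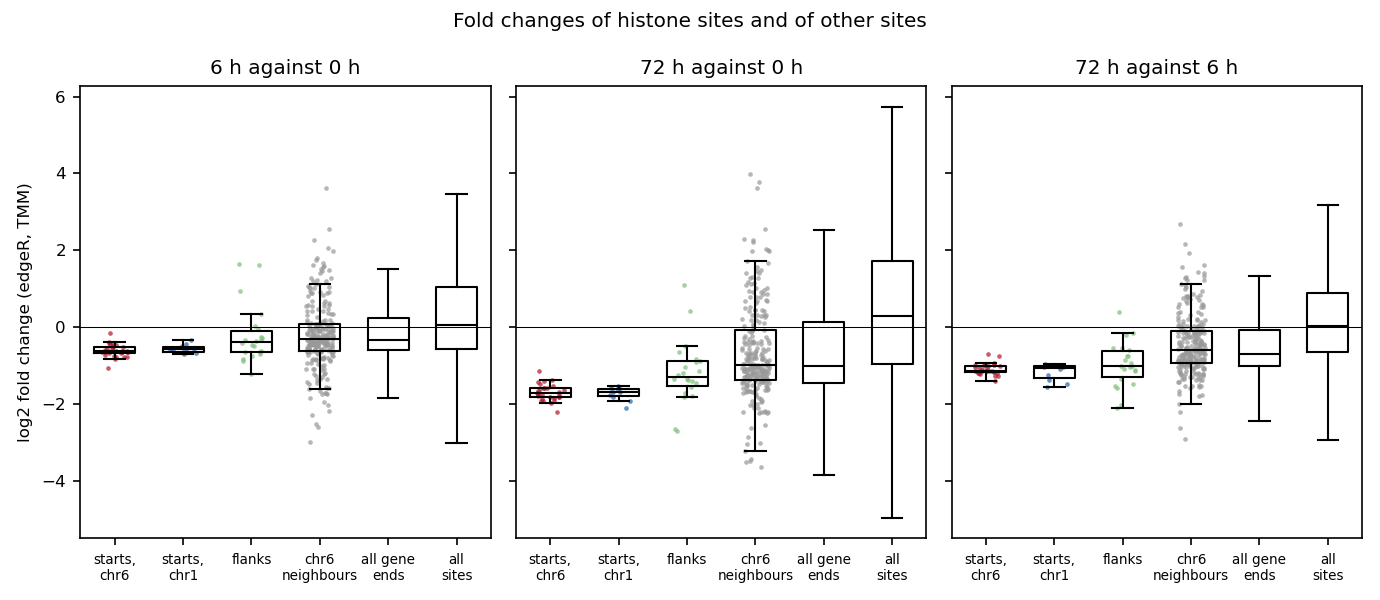
Fitted log2 fold changes (y axis, edgeR with TMM scaling) for the 3 contrasts, with points for single sites of the histone starts, histone flanks and chr6 neighbours and boxes (median, quartiles, whiskers to 1.5 times the interquartile range) for every set. At 72 h against 0 h the boxes of the chr6 and chr1 starts lie near −1.72 and −1.69, below the medians of gene ends (−1.01) and all sites (0.29).

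The size of this fall changed with the way libraries were scaled to each other. With loess offsets, which take out a trend with site strength in each library, the median of the 62 sites at 72 h was −0.45. At that time 34 were lower and none higher. At 6 h the median was −0.26 with 15 lower and 2 higher. Lower at 72 h were 54.8% of the histone sites, 45.3% of tested sites at gene ends and 31.6% of all tested sites. At 6 h these shares were 24.2%, 24.3% and 20.4%, so the histone count was near that at gene ends. On that scale gene ends had a median of −0.39 and the histone starts −0.33 at 72 h, so the starts no longer stood below gene ends. With TMM factors taken from sites that had a peak in all 6 libraries, all sites had a median of 1.26 at 72 h and gene ends of −0.05, while histone starts had −0.75, with 36 of 39 lower. At 6 h on that scale 6 of the 62 sites were lower and 3 higher, and 5 of the 39 starts were lower. The medians of the 62 sites were below 0 under each of the 5 scalings, but only under loess offsets did the starts lose their distance to other gene ends. Class medians differed on the loess scale. All 5 sites over an H3 start alone stayed lower at 72 h (median −0.81). Lower too were 4 of the 10 sites over an H2A and an H2B start (−0.14) and 5 of 11 H4 sites (−0.28). The other classes had 2 of 4 H1 sites (−0.39), 2 of 4 sites over an H2A start alone (−0.41) and 1 of 3 H2B sites (−0.36) lower. At gene ends 45.3% were lower. Sites that cover an H3 start together with others were not called, at −0.07 for H2AC19 with H3C15 and −0.28 for H3C4, H2AC7 and H2BC7. Under loess offsets not every site over an H3 start was thus called lower. In the main fit both of these sites were called lower at 72 h (−1.93 and −1.72). The difference between classes was not tested.

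**Figure D4:**
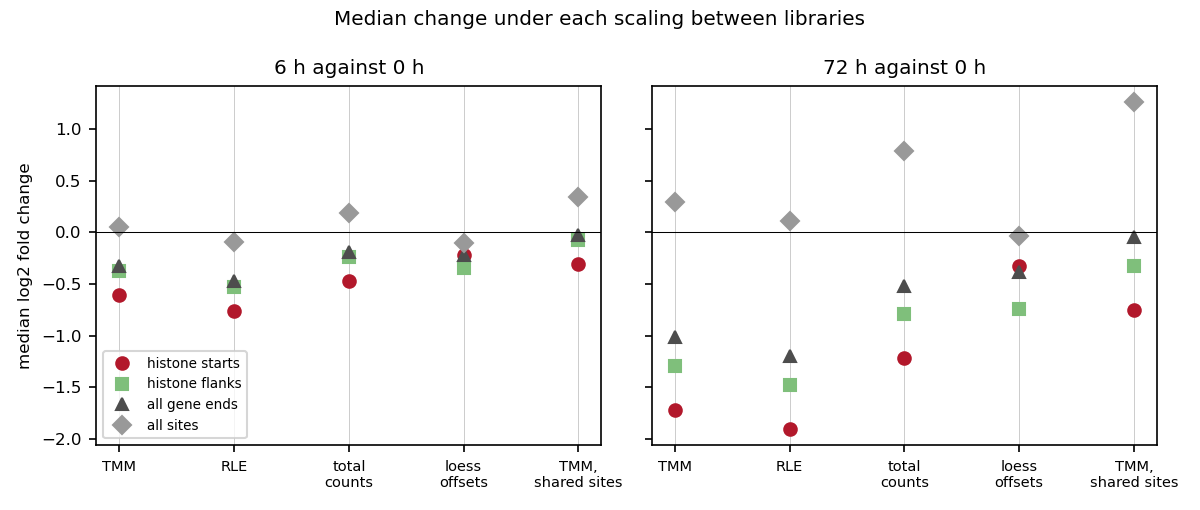
Median log2 fold change (y axis) of histone start sites, histone flanks, sites at all gene ends and all sites under 5 scalings between libraries, at 6 h (left) and 72 h (right) against 0 h. Histone starts lie below gene ends under TMM, RLE, total counts and TMM from shared sites, and at −0.33 against −0.39 at 72 h under loess offsets.

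The share of a library's counts that fell in histone sites corresponds to scaling by total counts. The 0 h libraries had 0.250% and 0.340%, those of 6 h 0.190% and 0.248%, and those of 72 h 0.126% and 0.136%. The times did not overlap, although replicate 2 at 6 h came close to replicate 1 at 0 h, and both 72 h libraries lay well below the other 4. The share in all sites at gene ends fell too, from 44.9% and 47.2% at 0 h to 39.5% and 39.8% at 6 h, then 28.4% and 28.5% at 72 h. Histone sites were higher in replicate 2 than in replicate 1 at 60 of 62 sites at 0 h (median log2 ratio 0.50), at 60 of 62 at 6 h (0.41) and at 54 of 62 at 72 h (0.14), while the medians at gene ends were 0.10, 0.04 and 0.04. What moved the histone sites between libraries of the same time was not tested. Within each replicate number the median ratio of histone sites at 6 h to 0 h was −0.53 and −0.60 in log2, and at 72 h to 0 h −1.47 and −1.76.

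The H2A and H2B genes are described first. All 10 sites over the start of both an H2A and an H2B gene, with no other start, fell at 6 h and at 72 h, with medians of −0.60 and −1.68. The most accessible histone site per kb lay over the starts of H2BC11 and H2AC11 (chr6:27132383-27133373). It had 124 and 165 CPM at 0 h, 92.1 and 104 at 6 h, then 38.8 and 46.7 at 72 h. The libraries of the 3 times did not overlap, and the log2 fold change was −0.56 (SE 0.15, adjusted p 0.0039, edgeR) at 6 h and −1.76 (SE 0.15, adjusted p 2.6e-09) at 72 h. Under loess offsets these values were 0.006 and 0.007, with no call.

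A wider site, over an H2B start and next to an H1 gene, fell as well. The site over the start of H2BC5, also within reach of H1-4 (chr6:26157200-26158812), had 88.6 and 136 CPM at 0 h, 51.1 and 91.9 at 6 h, then 27.9 and 34.3 at 72 h. Its 0 h and 6 h libraries overlapped. It fell by 0.64 (SE 0.21, adjusted p 0.016, edgeR) at 6 h and by 1.85 (SE 0.21, adjusted p 1.4e-07) at 72 h on the log2 scale. The low site of H2AC1 and H2BC1 moved in the same direction, from 12.2 and 6.98 CPM at 0 h to 7.58 and 3.70 at 6 h, then 3.80 and 2.78 at 72 h, with log2 fold changes of −0.82 (SE 0.32) and −1.53 (SE 0.31). Here replicate 1 was the higher library at each time.

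The genes of the linker histone H1 had 4 start sites, 2 of which fell at 6 h and all 4 at 72 h (medians −0.44 and −1.53). The start site of H1-4 had 31.7 and 39.1 CPM at 0 h, 24.5 and 27.2 at 6 h, then 13.1 and 13.4 at 72 h. These libraries did not overlap between times. A flanking site between H1-5 and H2AC16 (chr6:27865922-27866696) showed the largest fall of any histone site at both times. It had 5.78 and 17.1 CPM at 0 h, 4.35 and 5.38 at 6 h, then 1.58 and 1.96 at 72 h, which gave log2 fold changes of −1.23 (SE 0.34, adjusted p 0.0059, edgeR) and −2.70 (SE 0.35, adjusted p 7.7e-07). Its 0 h libraries lay far apart, and both were above the libraries of the later times.

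Of the 11 H4 start sites, 10 fell at 6 h and 11 at 72 h (medians −0.64 and −1.72). The site of H4C9 (chr6:27139019-27140181) led the start sites at both times. It had 33.9 and 60.2 CPM at 0 h, 16.4 and 27.8 at 6 h, then 9.001 and 11.4 at 72 h, with log2 fold changes of −1.07 (SE 0.23, adjusted p 0.00085, edgeR) and −2.21 (SE 0.24, adjusted p 6.4e-08). H4C5 stood at the other end: its start site had 46.8 and 54.9 CPM at 0 h, 38.5 and 53.0 at 6 h, then 21.0 and 25.6 at 72 h. Its libraries at 0 and 6 h overlapped, the change at 6 h was −0.15 (SE 0.17, adjusted p 0.51), and the change at 72 h was −1.13 (SE 0.17, adjusted p 4.7e-06). H4C5 was chosen for naming after its values were seen. The flank of H4C11 (chr6:27826057-27826634) had 15.7 and 28.3, 10.99 and 13.0, and 5.23 and 7.45 CPM at the 3 times, and it fell by 0.87 (SE 0.24) at 6 h and by 1.80 (SE 0.24) at 72 h.

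Of the 5 start sites over an H3 gene alone, 4 fell at 6 h and 5 at 72 h (medians −0.61 and −1.76). The strongest H3 site per kb lay over H3C2 (chr6:26031737-26032534). It had 61.1 and 77.9 CPM at 0 h, 41.8 and 49.1 at 6 h, then 18.7 and 22.5 at 72 h, with no overlap between times. The log2 fold change was −0.61 (SE 0.16, adjusted p 0.0038, edgeR) at 6 h and −1.76 (SE 0.16, adjusted p 7.3e-09) at 72 h.

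The few rises were at weak flanking sites, none of them over a histone start. The site at the far end of H2BC18, 507 bases outside the gene (chr1:149781496-149782182), had 1.37 and 1.43 CPM at 0 h, 4.09 and 4.59 at 6 h, then 3.05 and 2.92 at 72 h. It rose by 1.64 (SE 0.32, adjusted p 0.00027, edgeR) at 6 h and by 1.09 (SE 0.31, adjusted p 0.0040) at 72 h, and was the only histone site called higher at 72 h. A site 1500 bases from H3C8 (chr6:26268818-26269418) went from 0.780 and 1.15 CPM to 2.73 and 3.23 at 6 h and back to 0.802 and 0.590 at 72 h, a rise of 1.62 (SE 0.40, adjusted p 0.0025) at 6 h. A site 1163 bases from H4C12 (chr6:27829709-27830011) had 2.27 and 5.69 CPM at 0 h, 5.97 and 9.45 at 6 h, then 2.51 and 2.71 at 72 h, with a log2 fold change of 0.95 (SE 0.32, adjusted p 0.022) at 6 h. All libraries of this last site at 6 h lay above those at 0 h, though replicate 1 at 6 h did so by little. In the other direction, a weak site at the far end of H2BC4 (chr6:26113449-26113663) went from 1.37 and 1.62 CPM at 0 h to 0.852 and 1.04 at 6 h, then 0.310 and 0.165 at 72 h, with log2 fold changes of −0.63 (SE 0.46, adjusted p 0.29) and −2.65 (SE 0.50, adjusted p 8.7e-05). Its 72 h values rest on 12 and 7 counts.

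The chr6 and chr1 clusters were compared next. On chromosome 6, 33 of 47 sites fell and 2 rose at 6 h, 45 fell and none rose at 72 h, and the medians were −0.63 and −1.65. On chromosome 1, 9 of 15 sites fell and 1 rose at 6 h, 13 fell and 1 rose at 72 h, and the medians were −0.56 and −1.59. The chr6 median minus the chr1 median was −0.07 at 6 h, with −0.02 in replicate 1 and −0.08 in replicate 2 (SD 0.042, n = 2), and −0.06 at 72 h, with 0.02 and −0.12 (SD 0.098, n = 2). The difference at 72 h was smaller than its spread between replicates and changed sign between them. Leaving out 1 library at a time moved it between −0.17 and 0.13 at 72 h and between −0.12 and 0.04 at 6 h. With 2 libraries against 2 the smallest exact permutation p is 0.333, so no test was made. Restricted to start sites the medians were −0.63 on chromosome 6 and −0.57 on chromosome 1 at 6 h, and −1.72 and −1.69 at 72 h. TATAAA was in 33 of 50 chr6 and 8 of 13 chr1 promoters, CCAAT in 43 and 11, the octamer in 22 and 4, and GGTCCG in 10 and 4, with no test of these shares. AAACACA was in 6 chr6 promoters, those of the H1 genes, all upstream of the start. On chromosome 1 it was in H2AC20, H3C14 and H3C15, on the opposite strand at 31 to 35 bases after the start.

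**Figure D5:**
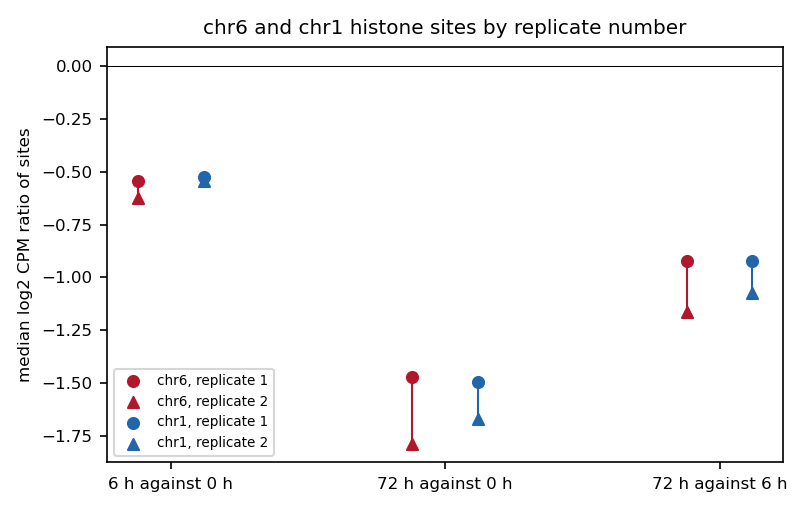
Median log2 ratio of CPM (y axis) over the 47 chr6 sites (red) and the 15 chr1 sites (blue) for each contrast, taken separately in replicate 1 (circles) and replicate 2 (triangles), joined by a line. At 72 h against 0 h the chr6 medians are −1.47 and −1.79 and the chr1 medians −1.49 and −1.67, so the clusters overlap.

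The surroundings of the histone genes also lost accessibility on the TMM scale, with medians closer to 0. The chr6 span held 256 tested sites more than 2 kb from any member. Of these 62 fell and 28 rose at 6 h and 156 fell and 30 rose at 72 h, with medians of −0.32 and −0.99, close to the medians of gene ends everywhere. The chr6 neighbours near another protein-coding gene end (31 sites) and away from one (225 sites) had medians of −0.99 and −0.99 at 72 h. On chromosome 1 only 7 neighbours were tested (median −0.99 at 72 h). With TMM from shared sites the chr6 neighbours had a median of −0.02 at 72 h and the chr6 histone starts −0.75, while with loess offsets the order turned, −0.44 for the neighbours and −0.33 for the starts.

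Each chromosome 1 site is given here, in order along the chromosome, because this cluster is small. The site over the start of H2BC18 (chr1:149811383-149812998) had 49.9 and 79.8 CPM at 0 h, 34.6 and 46.7 at 6 h, then 20.02 and 21.9 at 72 h. The next site, over H3C13 (chr1:149813156-149813950), had 23.8 and 31.2, then 20.2 and 15.3, then 7.91 and 9.24 CPM. Both fell at 6 h (−0.67 and −0.65) and at 72 h (−1.63 and −1.68), with no overlap between times. The H4C14 site (chr1:149832017-149833245) had 69.6 and 73.5, then 45.7 and 49.1, then 24.1 and 23.3 CPM, with changes of −0.59 (SE 0.14) and −1.59 (SE 0.14). The site of its promoter twin H4C15 (chr1:149860571-149861817) had 65.9 and 81.2, then 49.6 and 50.3, then 24.2 and 25.5 CPM, with changes of −0.56 (SE 0.14) and −1.57 (SE 0.15). The twins followed the same course, but as their promoters are identical they may share reads and are not independent.

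The H3C14 site (chr1:149840851-149842141) fell the most on chromosome 1 at 72 h. It had 78.2 and 114 CPM at 0 h, 51.6 and 77.9 at 6 h, then 20.7 and 23.9 at 72 h, a change of −0.56 (SE 0.18, adjusted p 0.017, edgeR) at 6 h and −2.11 (SE 0.19, adjusted p 5.0e-09) at 72 h. The adjacent H2AC18 site (chr1:149842211-149843285), also within reach of the far end of H4C15, had 68.6 and 82.2, then 53.8 and 65.8, then 21.9 and 24.7 CPM. Its change at 6 h was −0.33 (SE 0.15, adjusted p 0.080) although the libraries did not overlap, and at 72 h it was −1.70 (SE 0.15). The wide site over the copies H2AC19 and H3C15 (chr1:149850531-149852956) had 150 and 199, then 108 and 149, then 43.7 and 47.9 CPM, with changes of −0.44 (SE 0.15, adjusted p 0.023) and −1.93 (SE 0.16), and 0.16 at 6 h under loess offsets. At all 3 sites the step from 6 to 72 h was larger than the step before it, −1.55, −1.37 and −1.49. The medians of the 62 histone sites also had the larger step there, −1.07 against −0.59. These 3 sites hold copies with identical promoters that may share reads, so they are not independent.

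Around H2BC21 and its partner H2AC20, the shared start site (chr1:149886356-149887392) had 71.7 and 96.3, then 49.9 and 62.9, then 23.1 and 24.8 CPM, with changes of −0.57 (SE 0.16, adjusted p 0.0061, edgeR) and −1.81 (SE 0.16, adjusted p 5.1e-09). The H2AC21 site next to it (chr1:149887652-149888481) had 51.5 and 73.6, then 32.1 and 45.3, then 17.7 and 19.2 CPM, with changes of −0.69 (SE 0.18) and −1.77 (SE 0.18). Neither site had libraries that overlapped between times. On the other side of the pair, 2 flanking sites fell at 72 h only. The nearer (chr1:149885180-149885963) had 19.95 and 38.6, then 14.6 and 26.2, then 10.0 and 12.9 CPM (−1.36 at 72 h, SE 0.26), and the farther (chr1:149884858-149885064) had 5.20 and 9.89, then 4.60 and 7.75, then 2.85 and 3.14 CPM (−1.35, SE 0.29). In both, the libraries at 0 and 6 h overlapped.

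The distal chr1 pair H2AC25 and H2BC26 shared a start site (chr1:228457250-228458549) with 95.5 and 105 CPM at 0 h, 66.3 and 75.6 at 6 h, then 33.8 and 35.9 at 72 h. It fell by 0.50 (SE 0.13, adjusted p 0.0052, edgeR) at 6 h and by 1.52 (SE 0.14, adjusted p 5.3e-09) at 72 h, although under loess offsets the value at 72 h was 0.06 and not called. Its flank (chr1:228459075-228459336) had 4.87 and 5.69, then 2.56 and 4.02, then 2.82 and 3.14 CPM, a change of −0.63 (SE 0.28, adjusted p 0.080) at 6 h and −0.83 (SE 0.27, adjusted p 0.011) at 72 h. The remaining chr1 site, at the far end of H2BC18 (chr1:149782485-149782799), had 1.17 and 0.382, then 0.682 and 0.791, then 0.957 and 1.01 CPM and was not called at either time (0.02 and 0.41).

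Genes that control or process histone transcripts also lost accessibility on this scale. Near the 19 such genes, 22 of 43 sites fell and 2 rose at 6 h, and 35 fell and 1 rose at 72 h, with medians of −0.45 and −1.52. For comparison, 16.8% and 29.2% of all tested sites were lower at these times, and 31.5% and 60.7% of sites at gene ends. The site nearest NPAT, the coactivator of histone transcription, had 125 and 125 CPM at 0 h, 91.4 and 91.5 at 6 h, then 35.0 and 40.4 at 72 h, and fell by 0.45 at 6 h and by 1.73 (SE 0.13, adjusted p 7.8e-10, edgeR) at 72 h. The site of SLBP, which binds the stem-loop of histone mRNA, had 86.4 and 104, then 64.9 and 63.2, then 25.8 and 28.6 CPM (−0.57 and −1.81, SE 0.14 at 72 h). That of HINFP, which binds the H4 site II element, had 83.7 and 94.7, then 58.0 and 60.1, then 27.9 and 31.3 CPM (−0.60 and −1.59, SE 0.14).

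In each of these 3 sites the libraries did not overlap between times. CASP8AP2, a component of the histone locus body, changed by −1.67 at 72 h, POU2F1, which binds the octamer, by −1.67, CCNE1 and CCNE2, which encode cyclin E, by −1.85 and −1.68, and CDK2 by −1.52 (SE 0.13 to 0.18). The subunits of the U7 particle changed least, LSM10 by −1.06 (SE 0.16) and LSM11 by −1.05 (SE 0.17). CPSF2, part of the machinery that cuts histone pre-mRNA, changed by 0.06 at 6 h (adjusted p 0.81) and by −1.42 at 72 h (SE 0.18).

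Histone genes outside the member rule, among them those of replacement histones, were counted in the same way. Of the 20 genes listed 14 had a site, and of 26 tested sites 10 fell and 4 rose at 6 h and 17 fell and 3 rose at 72 h, with medians of −0.39 and −1.26. The counts of lower sites are near the shares at gene ends in general, 31.5% and 60.7%, beside 16.8% and 29.2% of all tested sites. H2BU1 from that list is an older name of the member H2BC26 and had no entry of its own. H3-3A, which encodes H3.3, had 126 and 139 CPM at 0 h, 78.4 and 80.0 at 6 h, then 34.8 and 36.0 at 72 h (−0.74 and −1.91, SE 0.13 at 72 h). H3-3B, which encodes the same protein, had 79.3 and 93.3, then 97.1 and 85.8, then 35.5 and 31.3 CPM, with 0.08 at 6 h (adjusted p 0.67, edgeR) and −1.37 (SE 0.14) at 72 h. At 6 h the H3-3B libraries overlapped those at 0 h and the H3-3A libraries did not; the difference between these genes was not tested. H2AZ1 changed by −0.87 and −1.69, H2AZ2 by −0.47 and −1.76, H2AX by −0.48 and −1.48, and CENPA, the centromeric H3, by −0.56 and −1.36. The site of H2BW1 rose from 0.325 and 0.191 CPM at 0 h to 1.19 and 1.52 at 6 h and was at 1.42 and 2.29 at 72 h, a change of 2.46 (SE 0.56, adjusted p 0.0013) and 2.87 (SE 0.52, adjusted p 5.7e-05). Its 0 h values rest on few reads, and H2BW1 was not among the genes with a peak in both 0 h libraries.

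Near 18 genes of histone chaperones and assembly factors, 21 of 37 tested sites fell and 2 rose at 6 h, and 31 fell and 1 rose at 72 h, with medians of −0.48 and −1.45, against the same shares of lower sites (16.8% and 29.2% of all, 31.5% and 60.7% at gene ends). RBBP7, a histone-binding subunit of several chromatin complexes, had 60.5 and 61.5, then 32.4 and 30.7, then 15 and 11.9 CPM, a change of −0.95 at 6 h and −2.18 (SE 0.16, adjusted p 5.1e-10, edgeR) at 72 h. CHAF1A of the assembly factor CAF-1 changed by −0.58 and −1.69, ASF1A by −0.78 and −1.61, and HIRA, the H3.3 chaperone, by −0.42 and −1.45. No test compared these lists with the histone genes, whose own median at 72 h was −1.63.

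Libraries held between 12258890 and 35548737 counts in sites, the least in replicate 1 at 6 h, and the shared spread between replicates was a biological coefficient of variation of 0.166. Sites near 9 of 9 erythroid marker genes had a peak in both 0 h libraries. Of 7 megakaryocyte markers 4 had one at 0 h, all but PF4, PPBP and VWF, and 6 had one at 72 h. At 72 h the sites of the erythroid markers had a median change of −1.39 (13 lower, none higher of 20). Those of the megakaryocyte markers had −0.32 (3 lower and 3 higher of 9 tested). Of all tested sites 29.2% were lower and 38.2% higher at that time, and 60.7% of those at gene ends were lower. The count of lower erythroid sites was thus near the share at gene ends. The part of cell identity in the histone values was not tested.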

How the data were processed

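ATAC-seq libraries from K562 at 0, 6 and 72 h of 25 nM PMA, 2 each, were analysed from the authors' deposited files. The deposited table gives whole-number read counts per site for 6 libraries, used as raw counts, with the authors' log2 fold changes and p-values, used only where named as the authors' deposited table. Its build is hg38, per the submitters' processing notes, which also name Trim Galore 0.4.3, BWA 0.7.17, SAMtools 1.9, deepTools 3.0.1, MACS2, bedtools 2.26 and DESeq without their roles. How counts were made and whether read ends were shifted for the transposase is not given in the sources used here. The deposited peak lists, called per library, hold a score, a fold enrichment (a ratio) and −log10 p-values and q-values, used for overlap of at least 1 base, for a stricter threshold and for summit positions.

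Site starts were converted to 1-based positions. Counts were fitted with edgeR 4.0.16 in R 4.3.3: TMM factors, filterByExpr with a minimum count of 10, a quasi-likelihood model of 3 time groups over 6 libraries, and Benjamini-Hochberg adjustment over 177759 of 181135 sites. A site was called at an adjusted p under 0.05. SE is the log2 fold change over the square root of F. CPM divides counts by the TMM-scaled library size. Medians of the lists carry no test. RefSeq gene ends and promoters were matched by symbol. The script was tested on simulated counts. Alternatives were RLE, total counts, loess offsets (limma 3.58.1), TMM from sites with peaks in all 6 libraries, no filter, DESeq2 1.42.0, a stricter threshold, a replicate block, each library left out, and a reach of 1 or 5 kb.

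Sites named with values were, by rule, the strongest per kb in each class, the 3 largest falls and rises at each time, every site on chromosome 1, and called sites against the common direction. Start sites of H1-4, H4C5 and of H2AC1 with H2BC1, and most genes of the related lists, were named after their values were seen. Members and lists were chosen with earlier results of these data known. Intervals and counts cover counting and replicate spread only. A list of markers of other cell types is not reported here.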

Additional observations from a re-analysis of the deposited data

How the results depend on the processing

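The medians of the 62 sites kept their sign under every alternative run. Sites called at 6 h numbered 45 in the main analysis, 17 under loess offsets, 9 under TMM from shared sites (6 lower, 3 higher), 4 at the stricter threshold (2 lower, 2 higher) and 10 to 51 with 1 library left out. At 72 h against 0 h 59 sites were called in the main analysis and 34 under loess offsets, 32 of them shared. At 72 h against 6 h 13 were called under loess and 29 under shared sites (56 in the main analysis). Over the time course 35 were called under loess (60). Of the 177759 tested sites, 36185 were lower and 34295 higher at 6 h under loess, and 117406 changed over the time course. Both are larger shares than among the histone sites. Lower at 72 h against 6 h under loess were 21.0% of the histone sites, 20.3% at gene ends and 15.1% of all. The median at 6 h was −0.73 under RLE, −0.73 under DESeq2, −0.45 under total counts, −0.26 under loess and −0.29 under shared sites, and −0.84 to −0.30 with 1 library left out. At 72 h against 0 h it was −1.13, −0.45 and −0.66 under total counts, loess and shared sites (−1.87 to −1.39 leaving out a library), and at 72 h against 6 h −0.71, −0.20 and −0.40 (−1.27 to −0.81). The cause of these shifts was not tested. The chr6 median minus the chr1 median ran from −0.117 to 0.041, from −0.165 to 0.126 and from −0.12 to 0.067 with a library left out, for 6 h and 72 h against 0 h and 72 h against 6 h. Counts called ran from 56 to 60 at 72 h against 0 h and from 43 to 57 at 72 h against 6 h. Within 5 kb the sites held 0.141% of the counts at 72 h, against 0.131% within 2 kb.

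Of 624 values of the 24 named sites, 536 kept their call or stayed uncalled, 66 lost the call and 17 gained it. The other 5 were called in the main analysis and changed sign. Changes of sign at values not called in the main analysis were not counted. Those 5 were, under loess offsets, the H2BC11 and H2AC11 site at 6 h (0.006) and 72 h (0.007), the H2AC19 and H3C15 site at 6 h (0.164) and the H2AC25 and H2BC26 site at 72 h (0.064), and, under shared sites, the flank of H2BC26 at 72 h (0.140). With the replicate block 51, 59 and 57 sites were called at 6 h, 72 h and between them, with all 45, 59 and 56 main calls kept. Over all tested sites, deviations of same-numbered libraries correlated at 0.082, 0.053 and 0.085, so the main model did not pair the libraries by number. Within the 62 histone sites, however, replicate 2 was the higher library at 60, 60 and 54 sites at 0, 6 and 72 h. Ratios and differences given by replicate number join libraries of the same number as a description only. Depth limits the weak sites most, such as the far end of H2BC4 with 12 and 7 counts at 72 h.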

Other observations

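In the authors' deposited table the 62 histone sites had median log2 fold changes of −0.71 at 6 h and −1.76 at 72 h, 60 of 62 were below 0 at 72 h, and the sign at 72 h was that of the edgeR fit in 62 of 62. The table holds the same adjusted p-value in both of its columns, and it was under 0.05 at 60 sites.

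The authors' deposited table also gives each site a class name, and these names did not follow the sign of its own fold changes. Of the histone sites 52 were named static, 5 downEarly and 5 upLate, and the last 10 all had the authors' log2 fold change at 72 h between −2.68 and −2.02. Among all sites named downEarly 69.5% were above 0 at 72 h, and among all named upLate 71.1%. The names were not used here.

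Over histone starts within a deposited peak, the median position of the peak summit ran from 9.0 bases (72 h replicate 2) to 68.0 bases (72 h replicate 1) downstream of the start over the 6 libraries. Over starts of other protein-coding genes it ran from 15 to 35 bases. Single summits were spread widely, with quartiles of −128 and 129 bases over 48 histone starts in 0 h replicate 2.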
